A study of Mus musculus with 18 samples.

Results

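The 10 genes described here belong to the unfolded protein response of the endoplasmic reticulum and to the response to amino acid shortage, measured in cultured mouse motoneurons. They were taken by name, as every probe set annotated to 1 of 10 symbols. They number 10 of the 18191 genes with a usable probe set, and 23 of 34934 probe sets. Hspa5, Hsp90b1, Herpud1 and Xbp1 form the chaperone arm, with 11 probe sets, and Atf4, Ddit3, Trib3, Asns, Chac1 and Sesn2 form the Atf4 arm, with 12. Each gene is led by the probe set of highest mean over all 18 arrays.

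Unfolded proteins in the endoplasmic reticulum are sensed by 3 membrane proteins, Ern1 (IRE1), Atf6 and Eif2ak3 (PERK). Ern1 splices the Xbp1 messenger RNA, and spliced Xbp1 and cleaved Atf6 act on genes for chaperones and for the degradation of misfolded proteins. Eif2ak3 phosphorylates the initiation factor eIF2, which lowers translation in general and raises that of Atf4. Eif2ak4 (GCN2) reaches the same factor when amino acids are short, so Atf4 and its targets answer both signals. In motoneurons this response has been studied because these cells are vulnerable in spinal muscular atrophy, the disease caused by loss of the survival motor neuron protein that Smn encodes. Atf4 is regulated mainly at translation and Xbp1 by splicing, so the levels of their messenger RNAs, which are what the arrays measured, do not report their activity.

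The cells were taken from the spinal cords of E12.5 mouse embryos, enriched by panning on the p75 receptor, and cultured for 7 days in chambers whose fine channels let axons, but not cell bodies, cross to a second side. BDNF was given on that axonal side alone, at 20 ng/ml, and CNTF on both sides, at 5 ng/ml. The cells were infected before plating with a lentivirus carrying a short hairpin RNA against Smn or with an empty vector virus, or were left untreated, and the untreated group is labelled wild-type. RNA of the somatodendritic compartment, which holds cell bodies and dendrites, and of the axonal compartment was amplified linearly in 2 rounds and hybridized to Affymetrix Mouse Genome 430 2.0 arrays, giving 6 groups of 3 arrays. The groups are somatodendritic wild-type, empty vector and Smn knockdown, and axonal wild-type, empty vector and Smn knockdown. The labels number the somatodendritic knockdown arrays 4 to 6 and all other groups 1 to 3. The labels leave unsaid whether replicate arrays are separate cultures, so the p-values measure the spread between these arrays, which may be technical.

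The background level of an array was set at the 95th percentile of 148 probe sets for odorant, taste and vomeronasal receptors, keratin-associated proteins and beta-defensins. It lay between 6.00 and 6.39 on the somatodendritic arrays and between 6.40 and 7.25 on the axonal ones. Between 10439 and 11395 genes exceeded it on the somatodendritic arrays and between 6164 and 10076 on the axonal arrays, the fewest on axonal knockdown replicate 1. Of 8 motoneuron markers, Prph was above background on all 18 arrays, Isl2 on 7, Isl1 on 3 and Lhx3 on 2, and Chat, Slc18a3, Mnx1 and Slc5a7 on 0. The single probe set of the targeted gene, Smn1, was below background on 17 of the 18 arrays, so these arrays cannot show whether the knockdown lowered it.

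Promoter sequences of all 10 genes were found in a RefSeq table of build GRCm38.p6. They were searched on both strands, from 250 bases before to 50 bases after the start of transcription, for motifs known from this response. The endoplasmic reticulum stress response element (ERSE, the letters CCAAT and CCACG with any 9 bases between them), the binding arrangement through which Atf6 and Xbp1 act with NF-Y, was present in Hspa5 once and in Hsp90b1 in 2 places, and in 0.119% of 32851 promoters. Its compact variant ERSE-II, the letters ATTGG and CCACG with any 1 base between them, was present in Herpud1 and in 0.0365% of promoters. A core of the element bound by Atf4 with C/EBP proteins (CARE, TGATGNAAN) was present in Herpud1, Trib3, Asns and Chac1, and in 3.95% of promoters. None of the 10 held the UPRE letters TGACGTGG, which stand in 0.676% of promoters. The motif matches of these genes do not overlap each other, and a match is a description of the letters, not a measured binding site. The following 5 windows are shown because they hold the matches of the chaperone arm and of the 2 amino acid and glutathione enzymes on which the axonal values below turn. Each runs 5′ to 3′ on the strand of the gene and ends at the last base before the start of transcription, with motif matches in capitals.
Hspa5, chr2:34771840-34772089 (+): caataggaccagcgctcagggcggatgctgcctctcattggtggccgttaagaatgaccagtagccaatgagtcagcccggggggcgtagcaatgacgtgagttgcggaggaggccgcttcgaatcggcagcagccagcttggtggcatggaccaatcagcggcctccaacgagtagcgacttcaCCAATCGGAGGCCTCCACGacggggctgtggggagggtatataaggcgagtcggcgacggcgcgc
Hsp90b1, chr10:86705445-86705694 (-): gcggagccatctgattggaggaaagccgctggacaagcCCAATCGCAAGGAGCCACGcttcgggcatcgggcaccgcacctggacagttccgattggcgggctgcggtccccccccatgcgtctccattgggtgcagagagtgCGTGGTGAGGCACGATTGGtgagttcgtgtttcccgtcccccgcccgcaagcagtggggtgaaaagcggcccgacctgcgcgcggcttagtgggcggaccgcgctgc
Herpud1, chr8:94386179-94386428 (+): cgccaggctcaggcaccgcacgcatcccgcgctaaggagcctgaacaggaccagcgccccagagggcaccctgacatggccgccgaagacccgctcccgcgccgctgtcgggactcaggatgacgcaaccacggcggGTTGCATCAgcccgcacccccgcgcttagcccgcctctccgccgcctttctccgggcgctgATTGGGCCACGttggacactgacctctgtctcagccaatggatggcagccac
Asns, chr6:7693210-7693459 (-): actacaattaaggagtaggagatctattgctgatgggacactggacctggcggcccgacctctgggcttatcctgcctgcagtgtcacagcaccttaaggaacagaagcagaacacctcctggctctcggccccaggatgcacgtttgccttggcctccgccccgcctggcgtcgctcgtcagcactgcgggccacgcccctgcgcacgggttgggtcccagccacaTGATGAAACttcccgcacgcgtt
Chac1, chr2:119350992-119351241 (+): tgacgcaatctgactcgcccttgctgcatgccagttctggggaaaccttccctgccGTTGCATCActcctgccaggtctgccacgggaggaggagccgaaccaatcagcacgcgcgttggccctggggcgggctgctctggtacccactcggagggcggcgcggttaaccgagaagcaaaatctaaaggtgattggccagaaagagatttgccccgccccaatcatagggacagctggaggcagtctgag
Counted from the start of transcription, the ERSE of Hspa5 begins at base -65. Those of Hsp90b1 begin at -212, and at -107 on the opposite strand. In Herpud1 the CARE letters begin at -113 on the opposite strand and the ERSE-II at -52. The CARE letters begin at -23 in Asns and, on the opposite strand, at -194 in Chac1 and, outside a window shown, at 14 bases past the start in Trib3.

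In the somatodendritic compartment the question was whether cell bodies with less Smn carry more of these messenger RNAs. With the knockdown, Hsp90b1, Herpud1, Ddit3, Trib3 and Sesn2 rose against the empty vector (limma, adjusted p under 0.05), by 1.35- to 2.10-fold for the 4 with a measured fold, and none of the 10 fell. These are 5 of 10 members, where 28.0% of all genes tested were called, 2267 of 18191 higher and 2821 lower. The log2 differences of all 10 members were above 0, as were those of 8459 of the 18191 genes, and the members' median was 0.35 against -0.02 over all genes. In 7 of the 10 the 3 knockdown values did not overlap the 3 empty vector values, as in 43.3% of all genes. In bulk samples such as these, a change in the number of cells of a type and a change in RNA per cell cannot be told apart.

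In the chaperone arm, Hsp90b1 encodes Grp94, a chaperone of the Hsp90 family in the endoplasmic reticulum. Its log2 values were 10.97, 11.08 and 11.27 on the knockdown arrays, 10.36, 10.47 and 10.22 with the empty vector and 9.97, 10.03 and 10.27 in wild-type arrays. All knockdown values lay above all control values. The difference against the empty vector was 0.76 (SE 0.11, limma adjusted p = 0.000307), a 1.69-fold rise, and that against wild-type was 1.01 (SE 0.11), a 2.02-fold rise.

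Herpud1 encodes a membrane protein that helps to remove misfolded proteins from the endoplasmic reticulum. It read 8.42, 8.49 and 8.28 with the knockdown, 7.55, 7.61 and 7.66 with the empty vector and 7.29, 7.32 and 7.48 in wild-type. The 3 groups did not overlap at all. Against the empty vector the difference was 0.79 (SE 0.09, limma adjusted p = 4.5e-05) and the fold 1.73, and against wild-type the difference was 1.04 (SE 0.09) and the fold 2.05. The empty vector itself lay 0.25 above wild-type (SE 0.09), which did not pass (adjusted p = 0.186).

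Hspa5, or BiP, is the main Hsp70 chaperone of the endoplasmic reticulum and the usual marker of this response. Its leading probe set gave 12.91, 12.94 and 12.90 with the knockdown, 12.75, 12.78 and 12.75 with the empty vector and 12.71, 12.63 and 12.80 in wild-type. The knockdown values stood above all others, but by little. The difference of 0.16 against the empty vector (SE 0.08, adjusted p = 0.174) and that of 0.20 against wild-type (SE 0.08, adjusted p = 0.0626) did not pass the test, and the 95% confidence interval of the first ran from -0.02 to 0.33. The second passed among genes above background (adjusted p = 0.0398), after joint quantile normalization (0.0298), with array weights (0.0442) and without wild-type replicate 3 (0.0420). A second probe set of Hspa5, described further on, did pass.

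Xbp1, the transcription factor whose messenger RNA Ern1 splices, was read at 11.33, 11.31 and 11.20 with the knockdown, 11.28, 11.07 and 11.28 with the empty vector and 11.18, 11.20 and 11.20 in wild-type. The groups overlapped. Its difference against the empty vector was 0.07 (SE 0.09, interval -0.12 to 0.26, adjusted p = 0.616), which leaves a rise as large as that of Herpud1 or Hsp90b1 outside the interval.

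**Figure D1:**
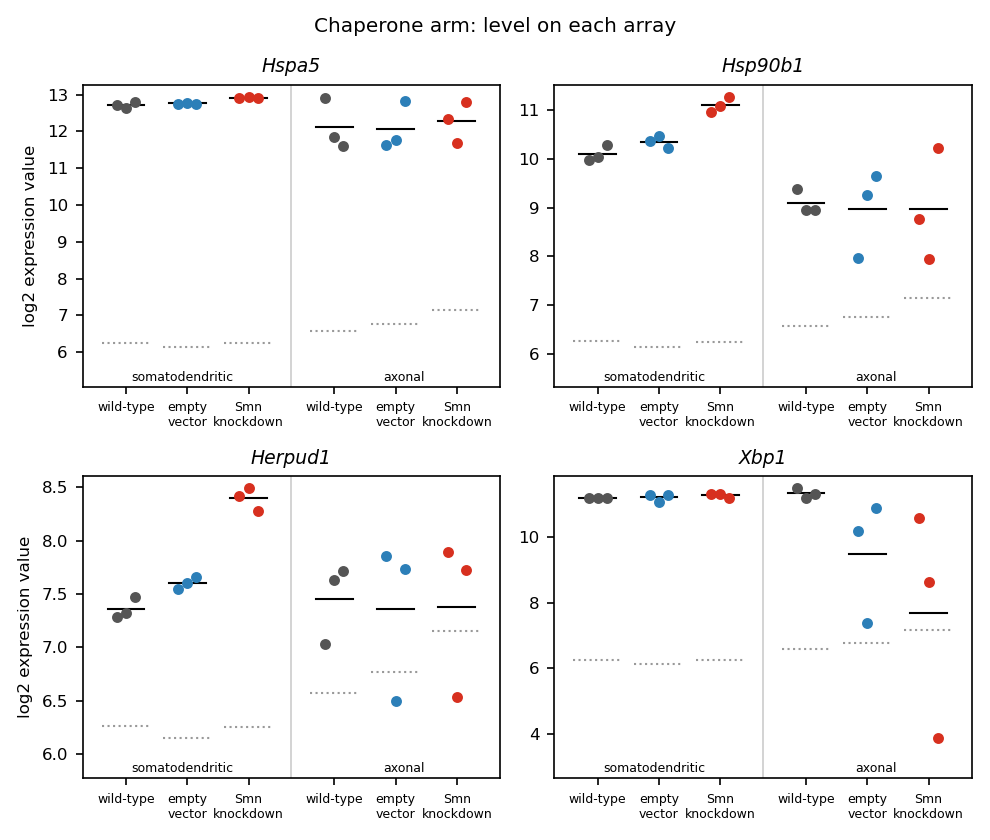
Level of Hspa5, Hsp90b1, Herpud1 and Xbp1 by group, as log2 expression value on the vertical axis of each panel, with 1 point per array, a black line at the mean of 3 arrays and a dotted line at the mean background level of the group. Somatodendritic knockdown arrays lie above both control groups for Hsp90b1 (10.97 to 11.27) and Herpud1 (8.28 to 8.49), while axonal values scatter, most of all for Xbp1, which runs from 3.87 to 10.59 in the axonal knockdown group.

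In the Atf4 arm, Ddit3, which encodes the pro-apoptotic transcription factor CHOP, had the largest difference of the 10 members. It read 8.74, 8.28 and 8.37 with the knockdown, 7.50, 7.55 and 7.12 with the empty vector and 7.63, 7.08 and 7.08 in wild-type. Every knockdown value exceeded every control value. The difference was 1.07 against the empty vector (SE 0.17, limma adjusted p = 0.000575), or 2.10-fold, and 1.20 against wild-type (SE 0.17), or 2.30-fold.

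Sesn2, a leucine-binding inhibitor of the growth kinase mTORC1, read 7.13, 7.07 and 7.06 with the knockdown against 6.61, 6.74 and 6.62 with the empty vector and 6.74, 6.58 and 6.69 in wild-type. The knockdown arrays were again the highest 3 of 9. The difference was 0.43 (SE 0.08, limma adjusted p = 0.00178) and the fold 1.35 against the empty vector, and 0.42 and 1.34 against wild-type.

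Trib3, a pseudokinase that is induced through Atf4 and Ddit3 and restrains them, depended on the control. Its values were 6.74, 7.06 and 6.88 with the knockdown, 6.39, 6.09 and 6.37 with the empty vector and 7.07, 6.73 and 6.17 in wild-type. The knockdown values were above those of the empty vector and overlapped those of wild-type. Against the empty vector the difference was 0.61 (SE 0.19, limma adjusted p = 0.0270), at least 1.50-fold, since 1 of the 3 empty vector arrays was not above background. Against wild-type it was 0.24 (adjusted p = 0.357). The call was lost without empty vector replicate 2 (adjusted p = 0.0947), without knockdown replicate 5 (0.111) and without knockdown replicate 6 (0.0638).

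Asns encodes asparagine synthetase and is a textbook target of Atf4. It gave 11.71, 11.79 and 11.67 with the knockdown, 11.53, 11.47 and 11.36 with the empty vector and 11.45, 11.13 and 11.29 in wild-type. No knockdown array overlapped a control array. The difference of 0.27 against the empty vector (SE 0.10, adjusted p = 0.0591) did not pass, and that of 0.43 against wild-type did (SE 0.10, adjusted p = 0.00382, 1.35-fold). The first did pass among genes above background (adjusted p = 0.0428), with only the groups compared (0.0366), after joint quantile normalization (0.0341) and with array weights (0.0277).

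Atf4 itself, the transcription factor of this arm, read 10.35, 10.26 and 10.27 with the knockdown, 10.03, 10.61 and 9.92 with the empty vector and 10.34, 10.30 and 10.20 in wild-type. The 3 empty vector arrays spanned the range of the other 6. Its difference was 0.11 (SE 0.14, interval -0.21 to 0.43, adjusted p = 0.640) against the empty vector, and it passed only without empty vector replicate 2 (0.32, adjusted p = 0.0234). Chac1, an enzyme that degrades glutathione, read 9.24, 8.85 and 8.62 with the knockdown, 8.84, 8.83 and 8.59 with the empty vector and 9.27, 8.74 and 8.39 in wild-type. The 3 groups overlapped, and the difference against the empty vector was 0.15 (SE 0.20, interval -0.29 to 0.59, adjusted p = 0.648).

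Against wild-type arrays, 5 members rose with the knockdown and 0 fell, Hsp90b1, Herpud1, Ddit3, Asns and Sesn2, where 36.0% of all genes were called and 15.6% were called higher. Hsp90b1, Herpud1, Ddit3 and Sesn2 are the 4 members higher against both controls. Both comparisons use the same 3 knockdown arrays. The empty vector against wild-type gave 0 calls among the 10 by limma, with Hsp90b1 and Herpud1 as the 2 members at an unadjusted p under 0.05, where 2.00% of all genes were called and 17.3% reached that p. Without wild-type replicate 3 the empty vector comparison called 1 member, Trib3, which was lower by a log2 difference of -0.62 (adjusted p = 0.0231). That fit called 7.74% of all genes.

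The somatodendritic calls depend on which arrays give the spread. The main test takes it from the 9 somatodendritic arrays, on which the SD within a group had a median of 0.11 over the 10 leading probe sets, while on the axonal arrays the median SD was 0.72. When all 18 arrays share 1 estimate of the spread, the SE of Hsp90b1 goes from 0.11 to 0.47 and 0 of the 10 members pass against either control, and calls among all genes go from 28.0% to 0.566% against the empty vector.

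**Figure D2:**
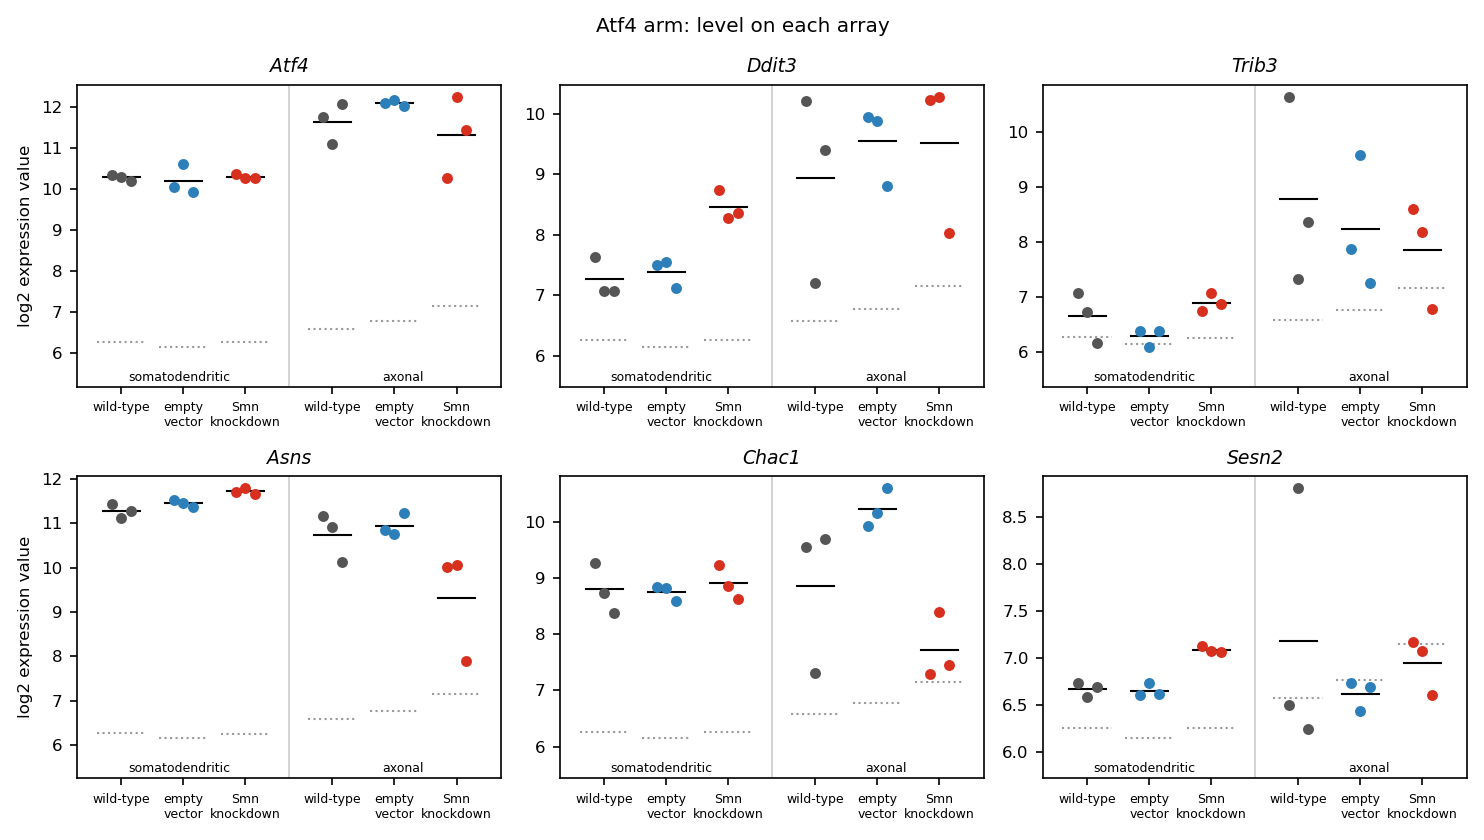
Level of Atf4, Ddit3, Trib3, Asns, Chac1 and Sesn2 by group, as log2 expression value on the vertical axis of each panel, with 1 point per array, a black line at the mean of 3 arrays and a dotted line at the mean background level of the group. Ddit3 is highest on the somatodendritic knockdown arrays among somatodendritic arrays (8.28 to 8.74), and Chac1 is lower on the axonal knockdown arrays (7.29 to 8.40) than on the axonal empty vector arrays (9.93 to 10.59).

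Markers of other cell populations and a control of RNA quality moved with the same comparison. Of 12 markers of microglia and macrophages, 11 rose with the knockdown against the empty vector, and against wild-type 7 rose and 1 fell. Their mean level, by array, was 5.77 to 6.04 with the empty vector, 7.50 to 7.57 in wild-type arrays and 7.83 to 8.17 in those of the knockdown. All 6 measured interferon response genes rose, with a mean level of 10.13 to 10.49 against 5.14 to 5.28. Of 8 astrocyte markers 6 fell, of 7 measured oligodendrocyte lineage markers 4 fell, and of 8 fibroblast and meningeal markers 2 fell. The signal of the 3′ Gapdh control probe set exceeded that of the 5′ set, on the log2 scale, by 3.11 to 3.61 in wild-type, 3.53 to 3.68 with the empty vector and 3.99 to 4.12 with the knockdown. The same measure for Actb was 4.54 to 4.94, 4.46 to 4.67 and 4.67 to 4.84, so that its knockdown arrays lay within the range of wild-type. The part of these shifts in the rise of Hsp90b1, Herpud1, Ddit3, Trib3 and Sesn2 was not tested.

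**Figure D3:**
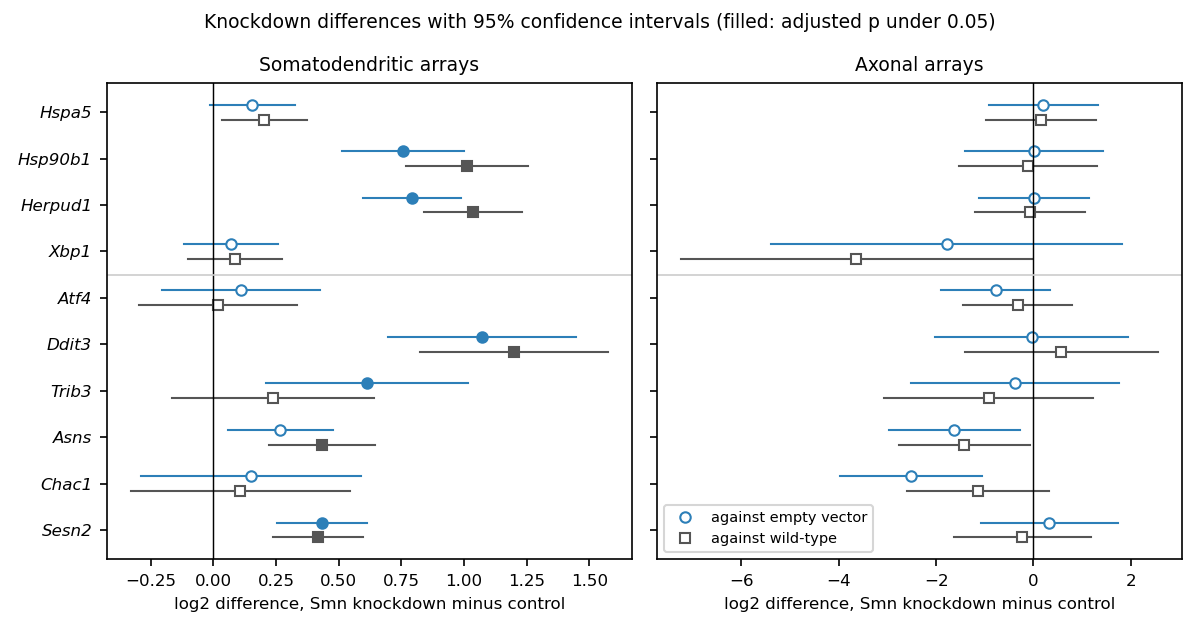
Difference between Smn knockdown and each control for the 10 members, in log2 units on the horizontal axis, in somatodendritic arrays on the left and axonal arrays on the right. Points are means of 3 arrays minus means of 3 arrays, bars are 95% confidence intervals, and filled points passed at an adjusted p under 0.05. On the somatodendritic side 5 members are filled against each control, and on the axonal side none is, with intervals many times wider.

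In the axonal compartment the same comparison asked whether these messenger RNAs differ in axons with less Smn. None of the 10 members passed the test against the empty vector or against wild-type (limma), where 0.176% and 0.0990% of all genes did. At an unadjusted p under 0.05, Chac1 and Asns were the 2 lower against the empty vector and Asns and Xbp1 the 2 lower against wild-type, where 18.2% and 20.9% of all genes reached that p. Both Chac1 and Asns did not overlap the empty vector arrays, as in 21.8% of all genes.

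Chac1 read 7.29, 8.40 and 7.46 on the axonal knockdown arrays, 9.93, 10.15 and 10.59 with the empty vector and 9.55, 7.30 and 9.70 in wild-type. The knockdown arrays were all below the empty vector arrays and overlapped the wild-type arrays, of which replicate 2 was low. The difference was -2.51 against the empty vector (SE 0.64, limma adjusted p = 0.109), or 5.70-fold lower in these arrays, and -1.13 against wild-type (SE 0.64, adjusted p = 0.353). The empty vector arrays were themselves 1.38 above wild-type (SE 0.64, adjusted p = 1.00).

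Asns read 10.02, 10.06 and 7.88 with the knockdown, 10.86, 10.76 and 11.23 with the empty vector and 11.17, 10.92 and 10.13 in wild-type. All knockdown values lay below all control values, with replicate 3 far below the other two. The difference was -1.63 against the empty vector (SE 0.59, adjusted p = 0.199, 3.09-fold lower) and -1.42 against wild-type (SE 0.59, adjusted p = 0.217, 2.68-fold lower). Without knockdown replicate 3 these were -0.91 (adjusted p = 0.278) and -0.71 (adjusted p = 0.353). On that array the 3′ Actb control exceeded the 5′ one by 3.33, and on the 8 other axonal arrays by 4.64 or more.

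Xbp1 gave 10.59, 8.62 and 3.87 with the knockdown, 10.18, 7.38 and 10.88 with the empty vector and 11.48, 11.19 and 11.33 in wild-type. Its wild-type arrays were close together and above the 6 others, which scattered widely, and knockdown replicate 3 was below background. The difference against wild-type was -3.64 (SE 1.58, adjusted p = 0.235), at least 6.03-fold lower, and that against the empty vector was -1.78 (SE 1.58, adjusted p = 0.594). By this leading probe set, without knockdown replicate 3, the differences were -1.73 (adjusted p = 0.396) and 0.13 (adjusted p = 0.962). Probe set 1420886_a_at read 6.20, 6.39 and 5.42 with the knockdown and 8.31 or more in wild-type. For 1420012_at these were 7.05, 6.47 and 6.21 and 7.33 or more. Both were above background on 0 of 3 knockdown arrays. With 1420011_s_at, knockdown values of 9.31, 8.20 and 6.46 overlapped wild-type values of 9.17 to 9.68. By every Xbp1 probe set the knockdown arrays overlapped the empty vector arrays.

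For the members called in cell bodies, the axonal values were less even. Ddit3 read 10.22, 10.28 and 8.03 with the knockdown and 9.95, 9.89 and 8.80 with the empty vector, a difference of -0.04 with an interval from -2.02 to 1.95. Hsp90b1 read 8.77, 7.95 and 10.22 against 7.97, 9.27 and 9.66, a difference of 0.01 with an interval from -1.41 to 1.44. Changes of the size measured in cell bodies lie inside both intervals. The second probe set of Hsp90b1, 1438040_a_at, had means of 7.23 with the knockdown and 9.12 with the empty vector. Its arrays overlapped, and 1 of 3 knockdown arrays was above background.

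Herpud1 read 7.90, 6.53 and 7.72 against 7.85, 6.50 and 7.74, with 1 array of each group below background. The leading probe set of Sesn2 was above background on 0 of 3 knockdown arrays and 1 of 3 empty vector arrays, so no fold is given. Its highest axonal value, 8.80, was that of wild-type replicate 2. The second, 1451599_at, was above background on 2 of 3 knockdown and 3 of 3 empty vector arrays. It read 7.55, 7.30 and 6.88 against 7.30, 7.13 and 7.15, and these overlapped. Atf4 read 10.26, 12.24 and 11.43 against 12.08, 12.16 and 12.02, a difference of -0.78 (SE 0.49, adjusted p = 0.449), Trib3 read 8.60, 8.18 and 6.78 against 7.86, 9.59 and 7.25, and Hspa5 read 12.34, 11.69 and 12.81 against 11.64, 11.76 and 12.83. By these leading probe sets the groups overlapped in all 3. Hspa5 by 1447824_x_at read 11.30, 10.91 and 11.41 against 10.48, 10.04 and 10.38, without overlap. Atf4 by 1439258_at read 8.79, 8.37 and 7.94 against 6.51, 7.84 and 6.39, with 1 of 3 empty vector arrays above background. The third probe set of each, and the second of Trib3, overlapped.

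The empty vector against wild-type called 0 of all 18191 genes in the axonal compartment by limma, and 0 of the 10 members were at an unadjusted p under 0.05, which 3.31% of all genes reached. With 1 spread over all 18 arrays, Chac1 (adjusted p = 0.00359) and Asns (0.0180) were the 2 members called lower with the knockdown against the empty vector, where 20.7% of all genes were called. Against wild-type, Xbp1 (0.0389) and Asns (0.0292) were, where 24.6% of all genes were called. At an unadjusted p under 0.05, 6 of 6 interferon response genes and 4 of 12 microglial markers were higher in the axonal knockdown arrays than with the empty vector. Against wild-type 5 of 6 and 1 of 12 were, and the median difference of the microglial markers was -0.68, where it was 1.55 against the empty vector. The mean microglial level ranged on axonal arrays from 5.83 to 6.36 with the empty vector, 6.58 to 8.93 with the knockdown and 6.91 to 9.93 in wild-type. By array, the background level of axonal wild-type was 6.42 to 6.75, that of the empty vector 6.40 to 7.06 and that of the knockdown 7.01 to 7.25, and 8919 to 10076, 7076 to 10057 and 6164 to 7312 genes exceeded it. The part of these differences in the levels of Chac1, Asns and Xbp1 was not tested.

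The difference between the knockdown effects in the 2 compartments was tested as an interaction over all 18 arrays. Among the 10 members, Chac1 passed, with a knockdown effect lower by 2.66 in axons than in cell bodies (log2 difference of differences -2.66, SE 0.71, limma adjusted p = 0.0392), where 6.77% of all genes passed. Its 6 arrays with the knockdown and its 6 with the empty vector are those given above. Asns came next, at -1.90 (SE 0.62, adjusted p = 0.0829). For Hsp90b1, Herpud1, Ddit3, Trib3 and Sesn2 the difference between compartments lay between -1.11 and -0.10 and did not pass, so their rise in cell bodies is not shown to differ from the axonal values. Chac1 did not pass with wild-type arrays in place of the empty vector (-1.24, adjusted p = 0.290, an alternative chosen after seeing the data), when the 18 arrays were quantile normalized together (-2.70, adjusted p = 0.0510), with array weights (-2.54, adjusted p = 0.132), or without any single one of 9 of its 12 arrays (-2.80 to -2.44, adjusted p from 0.0559 to 0.0965). Those 9 are the 3 somatodendritic arrays of each group, axonal empty vector replicate 3 and axonal knockdown replicates 1 and 3. Asns did pass with array weights (-1.99, adjusted p = 0.0392) and without axonal knockdown replicate 1 (-2.25), 2 (-2.26) or 3 (-1.18). Another fit left out both axonal knockdown replicate 1 and axonal empty vector replicate 2, the arrays of fewest genes above background in their groups. Asns (-2.34), Herpud1 (-1.46) and Xbp1 (-4.35) were then the 3 members called, where 16.6% of all genes were called.

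The levels of the 2 compartments can be set side by side only with care, since the deposited values were normalized apart. Over all genes the median difference was 0.13 to 0.17 higher in axonal arrays. Among the 11256 genes above background on all arrays of any group, axons were lower. The median was -0.49 in wild-type, -0.57 with the empty vector and -0.90 with the knockdown. By their leading probe sets, Atf4 and, in both control groups, Trib3 were higher in axons than in cell bodies, and Hsp90b1 was lower with either virus. Atf4 was called higher in all 3 conditions, by 1.35 in wild-type (SE 0.38, limma adjusted p = 0.0181), 1.90 with the empty vector and 1.01 with the knockdown, or 2.56-, 3.72- and 2.01-fold, while 29.1%, 42.0% and 61.7% of all genes were called in those 3 comparisons. In wild-type and empty vector all axonal values of Atf4 lay above all somatodendritic ones, and with the knockdown axonal replicate 1 did not. Without probe sets ending in _s_at, _x_at or _a_at, 0 members were called higher with the knockdown, where 62.4% of genes tested were called. Atf4, then read by 1448135_at, was thus not called. That probe set read 7.69, 10.69 and 10.01 in axons and 8.47, 8.59 and 8.50 in cell bodies with the knockdown.

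By its leading probe set Trib3 was called higher in axons in wild-type (2.12, at least 4.23-fold) and with the empty vector (1.95, at least 3.79-fold). Its second, 1426065_a_at, above background on all 18 arrays, showed smaller gaps. Its means were 7.64 in axons and 7.01 in cell bodies in wild-type, and 7.81 and 6.72 with the empty vector. Ddit3 and Chac1 were called higher with the empty vector, by 2.15 and 1.47, or 4.45- and 2.77-fold. By its leading probe set Hsp90b1 was lower in axons with the empty vector (-1.38, 2.61-fold) and with the knockdown (-2.13, 4.37-fold). With the empty vector its second, 1438040_a_at, overlapped, at 8.45, 9.21 and 9.71 in axons and 9.24, 9.56 and 9.18 in cell bodies. With the knockdown that probe set read 5.51, 5.78 and 10.39 against 10.09, 9.98 and 10.13, above background on 1 of 3 axonal arrays. With the knockdown, Herpud1 (-1.01, at least 1.73-fold), Xbp1 (-3.59, at least 5.81-fold) and Asns (-2.41, 5.30-fold) were also lower. The second probe set of Sesn2, 1451599_at, had axonal means of 7.12 in wild-type, 7.19 with the empty vector and 7.24 with the knockdown. In cell bodies these were 6.37, 6.43 and 6.61. Its axonal and somatodendritic arrays did not overlap, as for 11627, 11392 and 12793 of all 18191 genes by leading probe set. In counts, wild-type had 2 members higher and 0 lower in axons, where 14.9% and 14.2% of all genes were. The empty vector had 4 higher and 1 lower, where 23.7% and 18.2% were, and the knockdown 1 higher and 4 lower, where 34.0% and 27.7% were.

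After joint quantile normalization the calls of Atf4 held in all 3 conditions, and those of Hsp90b1 with the empty vector, of Trib3 in both, and of Herpud1 and Xbp1 with the knockdown did not. With the knockdown, 2 members were then called higher, where the main fit had 1. The shares of all genes called were 8.71% in wild-type, 19.6% with the empty vector and 48.3% with the knockdown. Astrocyte markers had a mean level of 8.55 to 9.49 on the somatodendritic arrays and 5.77 to 8.39 on the axonal ones, and oligodendrocyte lineage markers 7.04 to 8.61 and 6.07 to 6.91. Their part in the compartment differences of the members was not tested. Single arrays decided several of these calls. Atf4 in wild-type lost its call without somatodendritic replicate 2 or 3 or axonal replicate 3, and with the knockdown without any 1 of 5 of its 6 arrays, the exception being axonal replicate 1 (1.54). Without axonal wild-type replicate 1, Trib3 had a difference of 1.18, and without axonal empty vector replicate 2 one of 1.27, and neither passed. In wild-type, 0 members were called without somatodendritic replicate 2 or 3 or axonal replicate 3, where 13.7%, 15.5% and 24.3% of all genes were. With the empty vector, 1, 2 and 1 members were called higher without somatodendritic replicate 1, 2 and 3, and 0 lower. There 25%, 26.7% and 24.8% of all genes were called. Hsp90b1 thus lost its call in each, and Atf4, Ddit3, Trib3 and Chac1 did not all keep theirs. Xbp1 with the knockdown was -1.67 without axonal replicate 3, and Hsp90b1 with the empty vector -0.89 without axonal replicate 1, and these calls were lost too.

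The other probe sets of the same genes were fitted together with all 34934. In the somatodendritic knockdown against the empty vector, 11 of the 23 rose and 0 fell, where 24.4% of all probe sets were called. Both probe sets of Hsp90b1 rose, by 0.76 and 0.74, as did both of Herpud1, by 0.79 and 0.73, and both of Trib3, by 0.61 and 0.32. The second of Herpud1, 1435626_a_at, was above background on 3 of 3 knockdown arrays and 0 of 3 empty vector arrays. Both probe sets of Ddit3 rose, but the second (0.34) was above background on 0 of 18 arrays. None of the 4 probe sets of Xbp1 was called, their differences lying between 0.00 and 0.11.

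For Hspa5, Asns and Sesn2 the probe sets of a gene gave unlike answers. Hspa5 was read by 1416064_a_at (0.16), 1447824_x_at (0.05) and 1427464_s_at (0.51, SE 0.10, adjusted p = 0.00315), and the last alone was called. It also rose against wild-type, by 0.71. The second probe set of Asns, 1433966_x_at, rose by 0.34 (adjusted p = 0.0134) where the leading one had missed the threshold. The second of Sesn2, 1451599_at, differed by 0.18 and did not pass.

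For Atf4, 1448135_at was 0.25 and 1439258_at -0.26 from the empty vector, neither called, and against wild-type the first rose by 0.58 (adjusted p = 0.000799) while the second fell by 0.31 (adjusted p = 0.0472). The second was above background on 0 of the 9 somatodendritic arrays. Against wild-type 11 of the 23 probe sets rose and 1 fell, where 32.7% of all were called. On the axonal arrays 0 of the 23 passed against the empty vector by limma, where 0.149% of all did. Suffixes _s, _x and _a mark probe sets that can match several transcripts or families, and without them 3 members were called in the somatodendritic comparison, of the 7 that still had a probe set.

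**Figure D4:**
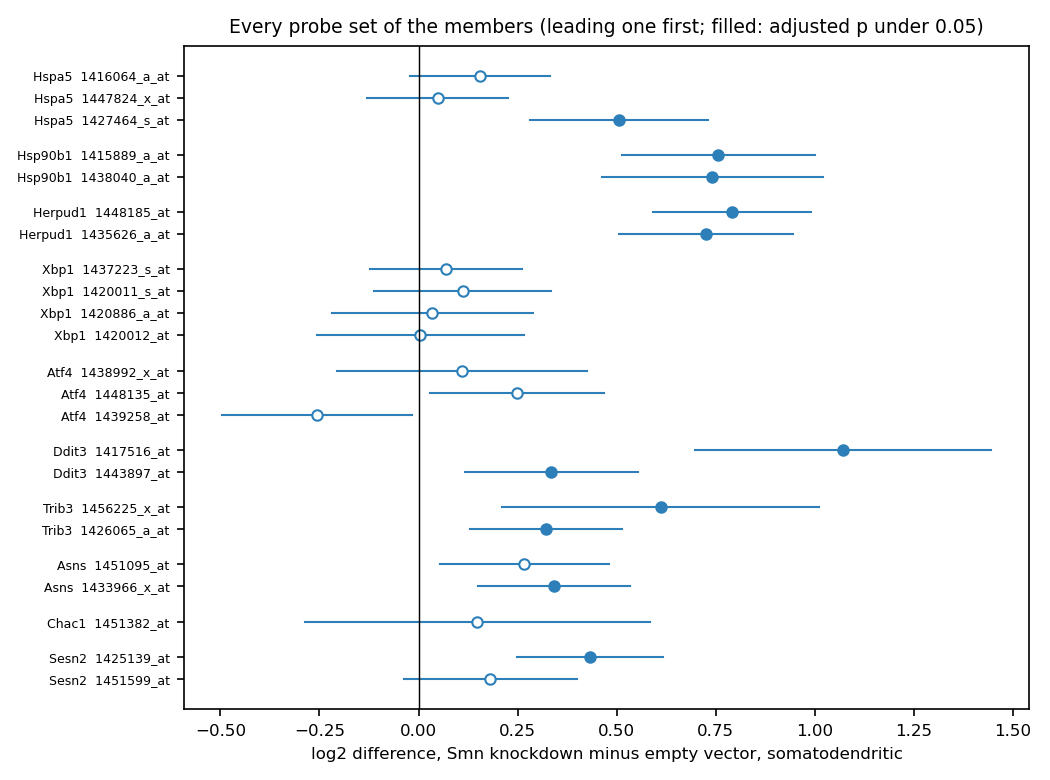
Difference between Smn knockdown and empty vector in somatodendritic arrays for all 23 probe sets of the 10 members, in log2 units on the horizontal axis, grouped by gene with the leading probe set first. Points are differences of means of 3 arrays, bars are 95% confidence intervals and filled points passed at an adjusted p under 0.05. Both probe sets of Hsp90b1, Herpud1, Ddit3 and Trib3 are filled, none of the 4 of Xbp1 is, and of the 3 of Hspa5 only 1427464_s_at is.

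The members were set beside 64 measured genes of the same pathways, from 5 lists that hold 68 genes without the members. In the somatodendritic knockdown against the empty vector, 12 of the 64 rose and 12 fell, with a median of 0.03. Among 14 chaperones and folding enzymes of the endoplasmic reticulum 5 rose and 1 fell, with a median of 0.08. Pdia6 and Pdia3, which form disulfide bonds in folding proteins, rose by 0.58 (1.50-fold) and 0.45 (1.37-fold), and Dnajc3, an Hspa5 co-chaperone, fell by 0.40. Among 10 genes of endoplasmic reticulum-associated degradation 1 rose and 0 fell, with a median of -0.04. That one was Edem1, which directs misfolded glycoproteins to degradation, at 0.59 (1.51-fold), while Syvn1, the ubiquitin ligase of this route, differed by -0.45 and Os9 by 0.25 without passing.

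Of 11 sensors and controllers of the integrated stress response, 1 rose and 4 fell, with a median of -0.13. The one that rose was Eif2ak2, an eIF2 kinase activated by double-stranded RNA and induced by interferon, at 1.89 (at least 1.33-fold). Eif2ak4, the kinase for amino acid shortage, fell by 0.74 on the log2 scale, and Ppp1r15a, which directs the phosphatase that reverses eIF2 phosphorylation, fell by 0.35. Of 12 factors linked to Atf4, 2 rose and 3 fell, with a median of -0.01. Atf3, a transcription factor induced downstream of Atf4, rose by 1.13 (at least 2.12-fold), while Sesn1 and Sesn3, relatives of Sesn2, fell by 0.59 and 0.34.

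Of 17 genes of amino acid synthesis and transport, 3 rose and 4 fell, with a median of -0.01. Slc3a2, the heavy chain of several amino acid transporters, rose by 0.83 (1.78-fold), Mthfd2, a mitochondrial folate enzyme, rose by 0.47 (1.39-fold), and Gpt2, an alanine aminotransferase, fell by 0.48 on the log2 scale. Against wild-type, 9 of the 64 rose and 13 fell. The shares called among the 64 may be read against the 28.0% and 36.0% of all genes given above.

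**Figure D5:**
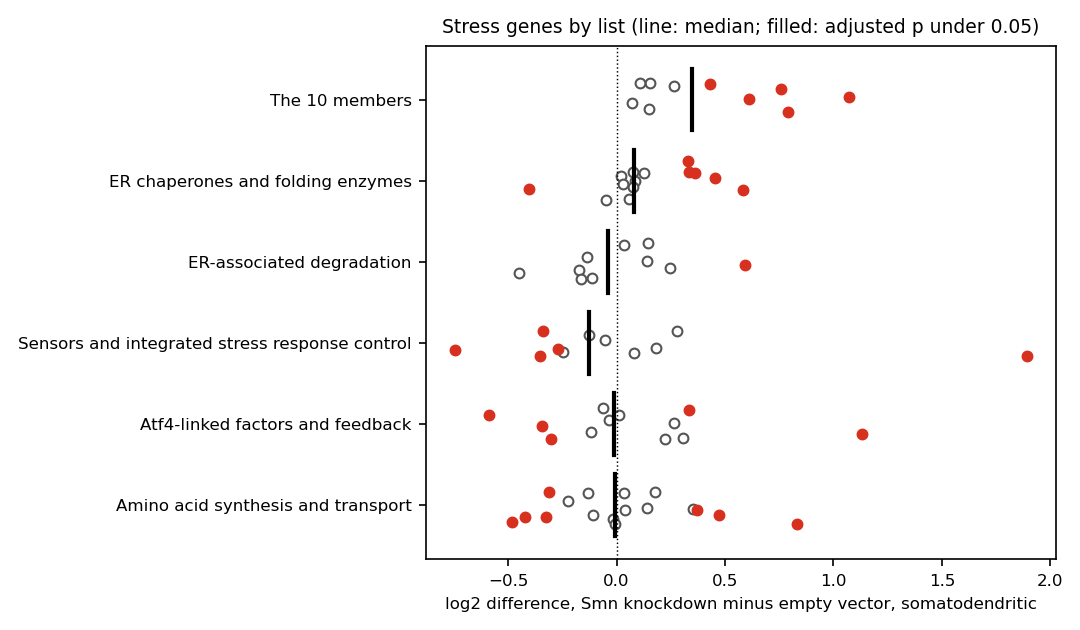
Difference between Smn knockdown and empty vector in somatodendritic arrays for the 10 members and for 5 lists of related genes, in log2 units on the horizontal axis, 1 point per gene. Filled points passed at an adjusted p under 0.05 and the vertical line is the median of the list. The median of the members is 0.35, and those of the 5 lists lie between -0.13 and 0.08, each list but that of degradation holding genes that rose and genes that fell.

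In the axonal knockdown against the empty vector 0 of the 64 passed by limma and 16 were at an unadjusted p under 0.05, where 18.2% of all genes reached it, with a median of -0.37 against 0.06 over all genes. The genes with the lowest p in each list, none of which passed, were Dnajb11 (at least 1.64-fold lower) and Pdia4 (at least 1.71-fold higher) among chaperones, and Derl1 (5.73-fold lower) and Edem1 (at least 1.25-fold lower) in degradation. Among controllers they were Mbtps2, which cleaves Atf6 (at least 4.23-fold lower), and Eif2ak2, which has no fold because 0 of 3 arrays of either group were above background. In the remaining lists they were Cebpg, a partner of Atf4 (at least 2.03-fold lower), and Jdp2 (3.52-fold lower), and Slc1a4, a neutral amino acid transporter (at least 7.32-fold lower), and Aldh18a1, a proline synthesis enzyme (2.20-fold higher). In the test of the difference between compartments, 4 of the 64 passed, 3 of them with a higher knockdown effect in axons and 1 with a lower one, a share near the 6.77% of all genes that passed.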

How the data were processed

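The deposited table holds log2 expression values of 45101 probe sets on 18 arrays. The labels' protocols give RNA isolation, amplification and hybridization, and the summarization and normalization software are not given in the sources used here. Sorted values of the arrays differed by at most 0.00484 within the somatodendritic and 0.0125 within the axonal compartment, and the medians were 5.78 and 5.95, so each compartment shares a distribution of its own. Of the probe sets, 34958 name 1 gene, 932 several and 9211 none, in GEO's platform annotation, which can be old, and 34754 of those with 1 gene were updated through gene identifiers. Left out were 64 control probe sets, 11 without values on some arrays, and probe sets with several genes or none.

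Genes were represented by their brightest probe set and compared with limma 3.58.1 in R 4.3.3, p-values being adjusted by Benjamini-Hochberg over 18191 genes and called under 0.05. Within a compartment the fit used its 9 arrays, and across compartments all 18. Log2 differences are first minus second group. A fold is given as "at least" where a group was not above background on all its arrays, then taken against that background, and is left out where both groups, or the brighter group, were not. Folds carry no error beside that of the log2 difference. The number of arrays, 3 a group, limits the precision. Named beside the members are up to 3 genes of each list with the lowest p in the somatodendritic comparison with the empty vector, and up to 2 in the axonal one. The members and lists were chosen with earlier results of these data known. Shared replicate numbers were checked for pairing: 1 of 18 correlations of deviations exceeded 0.1 (range -0.19 to 0.23), so the numbers were not taken to pair arrays. The alternatives were another choice of probe sets, a filter on dim genes, other arrays in the fit, joint quantile normalization, array weights, a replicate block and leaving out arrays.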

Additional observations from a re-analysis of the deposited data

Results flagged for a closer look

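For 3 results the knockdown effect differed between the compartments by the interaction test, which 6.77% of all genes passed. The knockdown effect on Chac1 in axonal arrays minus that in somatodendritic arrays was -2.66 on the log2 scale (limma adjusted p = 0.0392), from a difference of -2.51 in axons and 0.15 in cell bodies. The effect on the Hspa5 probe set 1447824_x_at was 0.86 higher in axons (adjusted p = 0.0480), from 0.91 in axons and 0.05 in cell bodies, whereas the other probe sets of Hspa5 gave 0.05 and 0.06. For the Atf4 probe set 1439258_at the effect was 1.71 higher in axons (limma adjusted p = 0.0497), from 1.46 and -0.26. The other Atf4 probe sets gave -0.89 and -1.11. On the somatodendritic arrays 1439258_at was not above background. In axons it was above background on 1 of 3 empty vector arrays and 3 of 3 knockdown arrays.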

How the results depend on the processing

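Of 1377 member values under alternatives, 1270 stayed on their side of the threshold, 78 no longer passed and 29 newly passed. The sign changed in 91, of which 64 left out 1 array, and in 0 of these did either fit pass. The following are counts of members called. In the somatodendritic knockdown 5 were called against each control. Leaving out 1 array gave 4 to 5 against the empty vector, where 20.4% to 25.5% of all genes were called. Against wild-type it gave 5 to 6, where 28.6% to 34.7% were. Leaving out probe sets ending in _s_at, _x_at or _a_at gave 3 against the empty vector, where 3 members then had no probe set. There 26.6% of the genes tested were called. All 18 arrays in 1 fit gave 0 against either, where 0.566% and 0.792% of all genes were called. Against the empty vector, 6 were called among genes above background, with only the groups compared, after joint quantile normalization and with array weights. Of the genes tested, 42.7%, 29.6%, 28.2% and 33.4% were called in these fits. The somatodendritic empty vector against wild-type went from 0 to 1 without wild-type replicate 3, where 7.74% of all genes were called, and leave-one-out fits gave 0 to 1. In the axonal knockdown, all 18 arrays in 1 fit gave 2 instead of 0 against either control, and leaving out arrays gave 0. Calls among all genes in that comparison with the empty vector went from 32 to 3763. Between compartments in wild-type, 2 became 1 without the suffixed probe sets and 1 after joint quantile normalization, where 30.7% and 8.71% of the genes tested were called. It became 4 with array weights, where 40.7% were called, and 0 to 3 on leaving out 1 array, where 13.7% to 24.3% were. With the empty vector, 5 became 3 under each of these first 3 alternatives, where 44%, 19.6% and 38.3% were called. It became 2 without axonal knockdown replicate 1 and axonal empty vector replicate 2, where 40.8% were called. Leaving out 1 array gave 1 to 5, where 24.8% to 44.8% were. With the knockdown, 5 became 2, both lower in axons, without the suffixed probe sets, where 62.4% were called. On leaving out 1 array it became 3 to 5, where 53.3% to 61.2% were. For the difference between compartments, 1 became 0 after joint quantile normalization and 0 with wild-type as control, where 6.65% and 10.7% were called. It became 3 without both arrays named above, where 16.6% of all genes were called, and 0 to 2 on leaving out 1 array. Leaving out any 1 somatodendritic array gave 0, where 2.12% to 2.88% were called. The shared replicate numbers are only numbers. With the replicate block, the members called between compartments went from 2 to 0 in wild-type and from 5 to 2 with the empty vector, and calls among all genes from 5285 to 1679 and from 7632 to 1576, while the within-compartment counts it could be fitted for stayed at 0. The somatodendritic knockdown arrays share no numbers with the other groups, so no replicate block was fitted to them. The suffixes removed members and left Atf4 and Xbp1 on other probe sets, and the shared spread shows in the larger SE. Otherwise the cause of these changes was not tested. Genes near background, among them Trib3 and axonal Sesn2 and Herpud1, are limited by signal.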
